A study of Drosophila melanogaster with 9 samples.

Results

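A set of 35 genes, out of 10245 with a value, was raised in the gut of flies kept on agar and had similar levels on glucose and on standard medium. Whole guts were taken for RNA sequencing from adult females of Oregon R, a wild-type strain of Drosophila melanogaster. Flies had been fed agar, which holds no nutrient that a fly can use, or 10% glucose, which supplies sugar alone, or standard medium, a complete food. There were 3 biological repeats on each diet and 9 libraries in all, no group carried a transgene or a mutation by its labels, and the sources used here do not say how old the flies were or how many guts went into a library.

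The 35 genes were chosen by the measured values described here. The mean log2 RPKM on agar (the reads of a gene relative to its transcript length and the library total, on a log2 scale) had to lie at least 0.8 above that on glucose. The means on glucose and on standard medium had to lie within 0.5 of each other. The lowest agar library had to exceed all 6 other libraries, and the mean on agar had to reach 2 RPKM. These criteria were met by 39 genes, and 4 of them (Gal, CG3902, GstD10 and CG6283) were then left out because the choice excluded certain genes by name. Since every library entered the choice, the differences between diets given for the 35 genes are descriptions. Their calls in the limma fit across all genes are given as counts only, and nothing is read from them. No repeat was left out of the choice of the 35. Sets chosen anew on 2 repeats, which share only some of their genes with the 35, are read in the third repeat after the members.

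The gut of an adult fly digests and absorbs food, and it is also a tissue of detoxification, with cytochrome P450 enzymes that oxidise foreign and endogenous compounds and glutathione S-transferases that couple them to glutathione. Its absorptive cells also store and burn fat. Fatty acids are broken down in mitochondria and peroxisomes, catalase removes the hydrogen peroxide that peroxisomes make, and amino acids and other carbon skeletons are broken down in mitochondria when dietary sugar is scarce.

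Library totals recovered from the values ranged from 34899709 to 48389188 reads. Of all genes, 8036 reached 1 RPKM in at least 3 libraries and were compared in one limma fit, and all 35 genes of the set were among them. On the first principal component of these genes (41.7% of the variance) the values were 44.8 for standard replicate 2, 42.1 for standard replicate 3, 5.83 for standard replicate 1 and, for the other 6 libraries, between -22.5 and -10.7. Agar replicate 3 stood apart on the second component (25.6%), at 41.2, with the other 8 libraries between -28.7 and 13.7. The median tested gene was 0.36 higher on agar and 0.33 higher on glucose than on standard medium (log2), and 0.03 higher on agar than on glucose. All 10 gut marker genes fixed for the check, among them the intestinal transcription factor GATAe and the brush border gene Myo31DF, were detected in every library. Summed levels of the 10 gut markers were 3503 to 7969 RPKM on agar, 5645 to 7123 on glucose and 6054 to 9024 on standard medium. Those of 18 muscle markers were 613 to 776, 563 to 809 and 531 to 733. For 7 fat body markers they were 265 to 379, 338 to 393 and 293 to 407. For 11 Malpighian tubule markers they were 140.1 to 156, 139.7 to 165 and 131 to 154. The part of such tissue in the results was not tested. In whole guts a change in the number of cells of a type and a change in RNA per cell cannot be told apart.

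The 35 genes were, at the median, 1.01 higher on agar than on glucose on the log2 scale, with a range of 0.81 to 2.66, which is 1.75-fold to 6.32-fold. On agar they lay a median of 1.21 above standard medium, from 0.42 to 2.33. On glucose they lay a median of 0.14 above standard medium, from -0.40 to 0.43. The glucose and standard libraries overlapped in 26 of the 35 (74.3%, against 47.0% of all tested genes). In 6 (17.1%, against 50.3%) all glucose libraries lay above all standard libraries, and in 3 (8.57%, against 2.64%) below them. In 18 of the 35 genes the level on agar was at least 2 times that on glucose, and in 22 it was at least 2 times that on standard medium. The choice asked for a difference from glucose of at least 0.8, which 141 of all 8036 tested genes reached. The share of all tested genes at 2 times was not counted. Agar lay above glucose and above standard medium in 3 of 3 repeats for all 35, as the choice required. Their mean levels on agar ran from 2.65 RPKM for CG42846 to 1882 RPKM for CG8997, with a median of 45.6, against 6.18 for all tested genes. Of the 35 genes, 12 reached 100 RPKM on agar, 18 lay from 10 to 100 and 5 lay under 10. Of all 8036 tested genes, 432, 2493 and 5111 did so. The choice asked for a mean of at least 2 RPKM on agar, whereas tested genes went down to 0.192, so these levels were partly set by the choice.

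**Figure D1:**
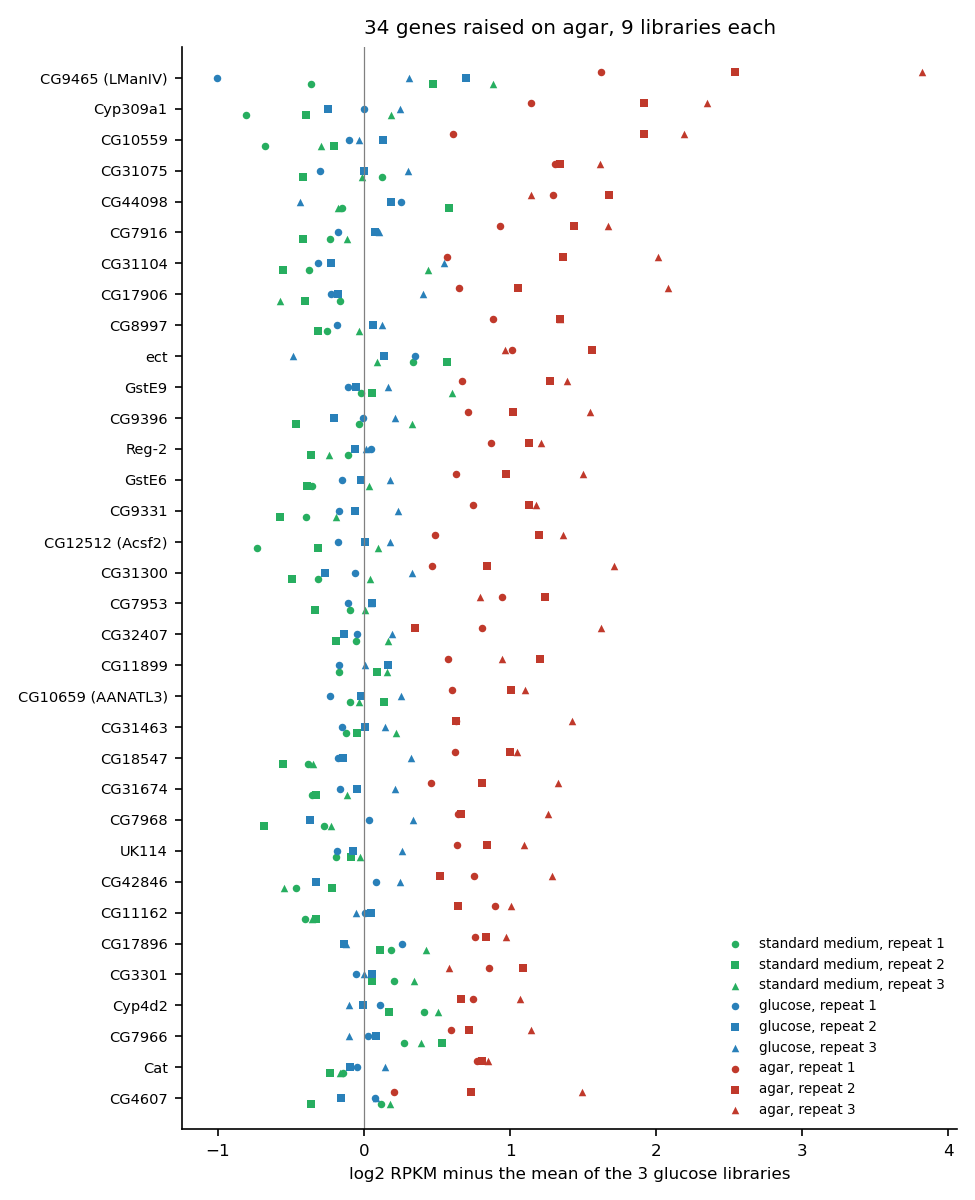
Level of 34 of the 35 genes in each of the 9 libraries (1 is not drawn), as log2 RPKM minus the gene's mean over the 3 glucose libraries (horizontal axis), with genes ordered from the highest agar minus glucose difference at the top; red is agar, blue glucose and green standard medium, and circles, squares and triangles are repeats 1, 2 and 3. In each gene the 3 red symbols lie to the right of the 6 others, as the choice required, by 0.01 (CG31104) to 1.01 (CG31075).

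In the fit across all genes, 6 of the 35 passed a limma adjusted p of 0.05 as higher on agar than on glucose, beside 19 of all 8036 genes, or 0.236%; 3 genes, 0.0373%, passed as lower on agar. With the repeat number as a block 31 of the 35 passed, beside 133 of all genes. At an unadjusted limma p under 0.05, 826 of all 8036 genes differed between agar and glucose in either direction. The mean was higher on agar than on glucose in 55.2% of all tested genes. Higher on agar than on standard medium were 33 of the 35, beside 38.2% of all genes (2.23% were lower). Between glucose and standard medium, 1 of the 35, CG11162, passed as higher on glucose, beside 23.1% of all genes (0.908% were lower). All 35 have their lowest agar library above the highest glucose library, which holds for 10.5% of tested genes, and above both other diets, which holds for 9.1%. Because the 35 were chosen on these same contrasts, nothing is read from their counts.

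**Figure D2:**
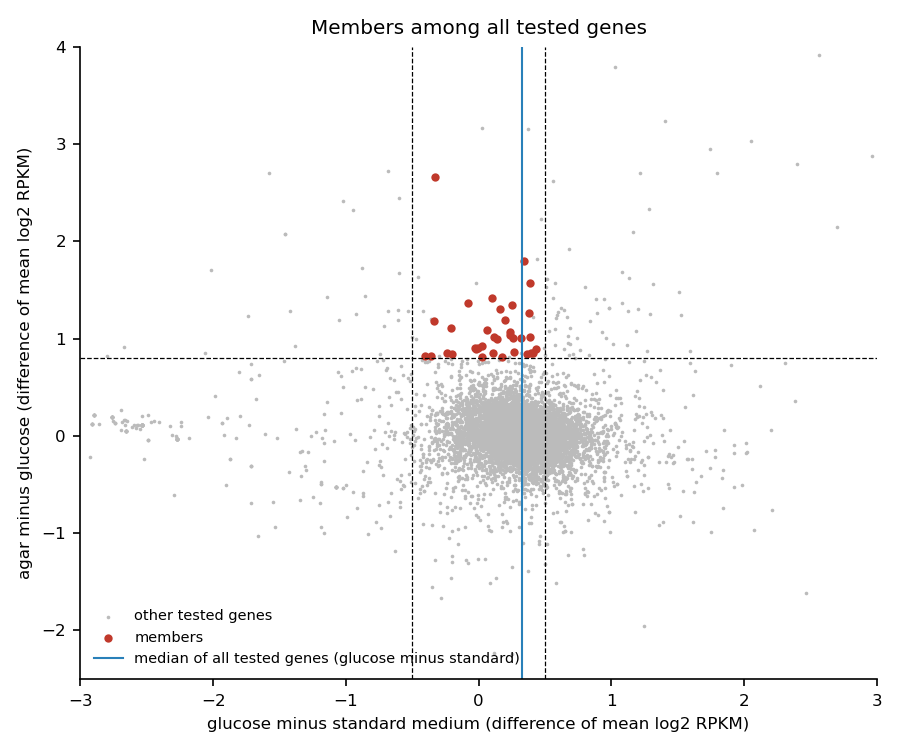
Glucose minus standard difference (horizontal axis, log2) against agar minus glucose difference (vertical axis, log2) for each tested gene in grey, with the 35 genes in red, dashed lines at the limits of 0.8 and of -0.5 and 0.5, and a blue line at the median gene's glucose minus standard difference; genes beyond the axis limits are not drawn. The median gene lies at 0.33 on the horizontal axis, so the band from -0.5 to 0.5 is not centred on it.

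The highest difference belonged to CG9465, also called LManIV, a member of the lysosomal alpha-mannosidase family, enzymes that trim mannose from glycoproteins. Its level was 13.9, 26.2 and 63.6 RPKM on agar, 2.25, 7.30 and 5.59 on glucose, against 3.51, 6.27 and 8.32 on standard medium. The lowest agar library lay above every other library, as the choice required. The agar libraries themselves differed 4.56-fold, the widest spread of any of the 35 genes. The agar minus glucose difference was 2.66, and it was 2.63, 1.84 and 3.51 within repeats 1, 2 and 3.

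Of the 6 alpha-mannosidase genes of this family that were measured, CG9465 was the 1 that met the choice, and the other 5 had agar minus glucose differences of 0.09 to 2.45, with a median of 1.28. CG9463 (LManIII) had 155, 193 and 528 RPKM on agar, 23.6, 54.4 and 75.4 on glucose, against 50.4, 62.7 and 106 on standard medium. CG9463 missed the flatness limit, with glucose minus standard at -0.60. CG9466 (LManV) and CG9468 (LManVI) missed it too, at -0.60 and -0.53, and their lowest agar libraries (408 and 809 RPKM) also lay under their highest standard libraries (488 and 819). LM408 (LManII) differed by 0.09 between agar and glucose and by -0.40 between agar and standard medium, with 325 ± 80.3 RPKM on agar, 300.5 ± 36.4 on glucose and 428 ± 83.5 on standard medium (SD, n = 3 each). These families were looked up after the members were known, and near-identical copies may share reads. Among the other 20 tested genes of the list of lysosomal and other glycosidases, 2 were called higher on agar than on glucose and 0 lower (6 higher with the repeat block). At an unadjusted p under 0.05 these counts were 7 and 0. The median difference over the 20 was 0.28, and 17 lay above 0, against 55.2% of all tested genes. The called genes were Gal, a beta-galactosidase, and CG31148 (Gba1a), a glucocerebrosidase. Gal had met the measured criteria on these same contrasts and was dropped by name. Over 17 alternatives Gal was called in 17 (limma adjusted p 0.00204 to 0.036) and CG31148 in 10 (0.00282 to 0.164). The CG31148 call was lost without any 1 of agar replicate 2, the 3 glucose replicates and standard replicates 2 and 3.

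Enzymes of detoxification, 7 of the 35 genes, are given next. Cyp309a1, a cytochrome P450, had 14.6, 24.9 and 33.5 RPKM on agar, 6.59, 5.56 and 7.84 on glucose, against 3.77, 5.0 and 7.50 on standard medium. Every agar library lay well above the other 6, and the difference from glucose was 1.80. Cyp4d2, a P450 of another family, was lower in level and in difference, at 6.87, 6.49 and 8.60 RPKM on agar, 4.43, 4.08 and 3.81 on glucose, against 5.45, 4.61 and 5.82 on standard medium. Its 3 glucose libraries all lay below its standard libraries, and its differences were 0.83 from glucose and 0.46 from standard medium. The latter was close to the median tested gene's 0.36. It was 0.10 after median-ratio scaling and 0.12 with quantile normalization, where glucose lay at -0.68 and -0.69 from standard medium. Of the other 53 tested P450 genes, 47 had a higher mean on agar than on glucose, with a median of 0.34. Of these, 1 was called higher and 0 lower (7 higher with the block; 22 and 1 at an unadjusted p under 0.05). The call was lost without any 1 of agar replicates 2 and 3, the 3 glucose replicates and standard replicates 2 and 3, and its limma adjusted p of 0.0371 ran from 0.0185 to 0.209 over 17 alternatives. The called gene, Cyp4s3, had 6.49 ± 1.23 RPKM on agar, 2.26 ± 0.463 on glucose and 1.58 ± 0.305 on standard medium (SD, n = 3 each).

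GstE6 and GstE9 encode Epsilon-class glutathione S-transferases, an insect class most of whose fly genes lie together. GstE6 had 159, 201 and 290.4 RPKM on agar, 92.2, 101 and 116 on glucose, against 80.2, 78.2 and 105 on standard medium. GstE9 had 86.1, 131 and 142 RPKM on agar, 50.2, 52.0 and 60.7 on glucose, against 53.3, 56.2 and 82.0 on standard medium. Both were lowest on agar in repeat 1 and highest in repeat 3, and for GstE9 agar replicate 1 lay 0.07 above standard replicate 3. Their agar minus glucose differences were 1.04 and 1.11. The cluster was uneven: between these 2 genes lie GstE7, whose difference was 0.04 (50.1 ± 10.7 RPKM on agar and 49.2 ± 13.3 on glucose), and GstE8, at 0.75 (34.7 ± 11.6 and 20.0 ± 4.03). GstE12, at 124 ± 30.4 RPKM on agar and 126 ± 8.39 on glucose, differed by -0.06 (SD, n = 3 each). The counts of Epsilon genes are small, and reads of near-identical copies could have been split between them. Of the other 17 tested glutathione S-transferases outside the Delta class, 0 were called higher or lower by limma (4 higher with the block; 10 higher and 0 lower at an unadjusted p under 0.05). Their median was 0.40, with 15 above 0. GstO2, with the smallest p of them, had 53.2, 62.5 and 65.2 RPKM on agar, 34.0, 37.8 and 45.3 on glucose, against 27.1, 26.8 and 29.0 on standard medium.

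CG10559, CG31104 and CG31300 belong to the EcKinase-like family, proteins related to ecdysteroid kinases that have been proposed to detoxify by phosphorylation. CG31104 had 60.5, 105 and 165 RPKM on agar, 32.8, 34.9 and 59.8 on glucose, against 31.5, 27.9 and 55.4 on standard medium. Its agar replicate 1 lay only 0.01 above glucose replicate 3, the narrowest gap in the set. CG31300 had 74.9, 96.9 and 177 on agar, 52.0, 45.0 and 67.9 on glucose, against 43.5, 38.4 and 55.7 on standard medium. CG10559 was rare, at 2.34, 5.78 and 7.01 RPKM on agar, 1.43, 1.68 and 1.5 on glucose, against 0.958, 1.33 and 1.25 on standard medium. Its differences were 1.58 from glucose and 1.97 from standard medium. In all 3 genes agar replicate 1 was the lowest agar library and agar replicate 3 the highest. The other 40 tested genes of the family had a median difference of 0.21, from -0.90 to 1.3, with 28 above 0. The family was assembled after the members were known.

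Other detoxification lists held no member. Of 27 UDP-glycosyltransferases 22 had a higher mean on agar than on glucose, with a median of 0.21, and of 13 esterases 12 did, with a median of 0.28. Without agar replicate 3 the counts were 14 and 11, and the medians 0.07 and 0.18. For the UDP-glycosyltransferases the median was 0.45 without agar replicate 1 and 0.36 without glucose replicate 3. In both lists limma called 0 genes in either direction, while 5 and 5 were higher and 0 and 0 lower at an unadjusted p under 0.05. With the block 1 and 2 were called higher. Of 49 organic ion and ABC transporters 21 had a higher mean on agar than on glucose, with a median of -0.06, which was 0.01 without agar replicate 1 (with 1 called higher and 1 lower) and -0.10 to -0.01 without any other agar or glucose library.

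Enzymes of oxidative and peroxisomal metabolism were the next group. Cat, catalase, had 129.7, 133 and 137 RPKM on agar, 73.5, 71.0 and 84.0 on glucose, against 68.8, 64.6 and 67.8 on standard medium. Its agar libraries were the most alike of the 35 genes, with the highest 1.05 times the lowest, and none came near the other diets. The difference from glucose was 0.81, close to the limit of 0.8, and 0.82, 0.90 and 0.70 within the 3 repeats. CG12512 (Acsf2), an acyl-CoA synthetase of the kind that activates fatty acids, had 32.9, 53.9 and 60.5 on agar, 20.8, 23.6 and 26.6 on glucose, against 14.2, 18.9 and 25.2 on standard medium.

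Among the other 29 tested genes of fatty acid oxidation, 27 had a higher mean on agar than on glucose, with a median of 0.35. Of all tested genes 55.2% had a higher mean on agar. An unadjusted limma p under 0.05 in either direction was found for 826 of all 8036. By limma 1 of the 29 was called higher and 0 lower (4 higher with the block, and 16 and 0 at an unadjusted p under 0.05). The call was lost after median-ratio scaling and without any 1 of agar replicates 2 and 3, the 3 glucose replicates and standard replicates 2 and 3. Its limma adjusted p of 0.0405 ran from 0.0142 to 0.209 over 17 alternatives. The called gene, CG3902, an acyl-CoA dehydrogenase that had met the measured criteria and was dropped by name, had 100.3 ± 21 RPKM on agar, 31.8 ± 2.46 on glucose and 44.7 ± 12.4 on standard medium (SD, n = 3 each). The other 20 peroxisome genes had a median of 0.17 with 16 above 0 (0.10 with 13 above 0 without agar replicate 1), and limma called 0 in either direction, with 5 higher and 0 lower at an unadjusted p under 0.05.

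Several enzymes of amino acid and small-acid metabolism were in the set. CG17896, the methylmalonate semialdehyde dehydrogenase of valine breakdown, had 67.9, 71.3 and 78.4 RPKM on agar, 48.0, 36.4 and 36.7 on glucose, against 45.4, 43.1 and 53.6 on standard medium. Here standard medium was mostly above glucose, and agar stood above both, as the choice required. CG11899, phosphoserine aminotransferase of serine synthesis, had 9.98, 15.5 and 12.9 on agar, 5.96, 7.53 and 6.74 on glucose, against 5.97, 7.15 and 7.50 on standard medium. CG31075, an aldehyde dehydrogenase, had 16.7, 17.1 and 20.7 on agar, 5.49, 6.77 and 8.31 on glucose, against 7.36, 5.07 and 6.70 on standard medium. Its lowest agar library was 1.01 above its highest other library on the log2 scale, the widest gap in the set, and its difference from glucose was 1.42. UK114, of the RidA family that clears reactive imines made during amino acid metabolism, had 32.9, 38.0 and 45.3 on agar, 18.7, 20.1 and 25.4 on glucose, against 18.6, 19.9 and 20.8 on standard medium.

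Of the other 24 tested genes of amino acid breakdown, 19 had a higher mean on agar than on glucose, with a median of 0.27. Of them 1 was called higher and 0 lower, and 9 and 1 were at an unadjusted p under 0.05. The limma adjusted p of 0.0496 ran from 0.0227 to 0.244 over 17 alternatives, and the call held in 3 of them. It was lost under both scalings and without each of the 9 libraries in turn. The called gene was CG15093, a 3-hydroxyisobutyrate dehydrogenase of the same valine pathway as CG17896, with 57.1, 53.5 and 52.2 RPKM on agar, 33.4, 25.9 and 22.3 on glucose, against 36.8, 35.1 and 42.4 on standard medium. It missed the set because glucose lay 0.502 below standard medium, just past the limit.

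CG9331 and CG31674 are neighbours that resemble glyoxylate and hydroxypyruvate reductases. CG9331 had 93.0, 121 and 125 RPKM on agar, 49.2, 53.0 and 65.1 on glucose, against 42.1, 37.1 and 48.4 on standard medium. CG31674 was less abundant, at 12.6, 16 and 23 RPKM on agar, 8.16, 8.87 and 10.6 on glucose, against 7.15, 7.28 and 8.44 on standard medium. Neither gene overlapped between agar and another diet, as the choice required. The differences from glucose were 1.02 and 0.86. CG31673, which lies between them and did not meet the choice, differed by 0.72, with 29.3 ± 6.96 RPKM on agar, 17.7 ± 2.51 on glucose and 13.4 ± 0.808 on standard medium (SD, n = 3 each).

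Further enzymes and carriers had smaller differences or less certain roles. CG9396, of the mitochondrial pyruvate carrier family, had 34.0, 42.1 and 60.7 RPKM on agar, 20.7, 18.0 and 24.0 on glucose, against 20.3, 15 and 26.0 on standard medium. CG4607, which resembles sugar transporters, had 33.2, 47.7 and 80.8 on agar, 30.3, 25.8 and 30.4 on glucose, against 31.2, 22.3 and 32.5 on standard medium. In CG4607 repeat 1 hardly differed between diets (0.13 for agar minus glucose and 0.09 for agar minus standard), while repeats 2 and 3 differed by 0.88 and 1.41 from glucose. CG10659 (AANATL3), an arylalkylamine N-acetyltransferase-like gene of the family that acetylates amines, had 162, 214 and 229 on agar, 90.8, 105 and 127 on glucose, against 99.6, 117 and 104 on standard medium, with a glucose minus standard difference of 0.00 on the log2 scale. CG18547, an aldo-keto reductase-like gene, had 62.5 ± 9.63 RPKM on agar, 33.9 ± 6.98 on glucose and 24.9 ± 1.81 on standard medium (SD, n = 3 each). All 3 of its diets were ordered agar, glucose, standard medium. Its glucose minus standard difference was 0.43, beside 0.33 for the median tested gene. It was 0.11 after median-ratio scaling and 0.32 with quantile normalization. CG3301, a short-chain dehydrogenase, had 15.1 ± 2.64, 8.37 ± 0.303 and 9.66 ± 0.972. CG11162, of the fatty acid hydroxylase family, had 41.0 ± 5.11, 22.7 ± 0.843 and 17.6 ± 0.44. CG3301 thus had a lower mean on glucose than on standard medium, and CG11162 a higher one. These differences were -0.20 and 0.36 on the log2 scale, and -0.52 and 0.04 after median-ratio scaling. CG7966, related to selenium-binding proteins, was nearest to standard medium, with 15, 16.3 and 21.9 on agar, 10.1, 10.5 and 9.23 on glucose, against 12, 14.4 and 13 on standard medium. Its agar minus standard difference of 0.42 was close to the median tested gene's 0.36.

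The most abundant members were 4 genes next to each other in the annotation's gene order, CG8997, CG7916, CG7953 and CG7968, for which no role is given here. CG8997 had 1503, 2072 and 2070.3 RPKM on agar, 718, 852 and 890.4 on glucose, against 686, 655 and 798 on standard medium. CG7916 had 808, 1144 and 1349 on agar, 375, 446 and 454 on glucose, against 361, 317 and 391 on standard medium. CG7953 had 656, 804 and 589.8 on agar, 316, 354 and 352 on glucose, against 318, 270.1 and 341 on standard medium. In these 3 genes the lowest agar library lay 0.76, 0.83 and 0.74 above the highest other library (log2). CG7968 had 226, 229 and 346 on agar, 148, 112 and 183 on glucose, against 119.7, 89.9 and 124 on standard medium. The agar minus glucose differences were 1.19, 1.35, 0.99 and 0.85 in that order. The gene beyond CG8997, CG33306, was also abundant and differed by 0.61, and the next, CG33307, by -0.13. On the other side Smg5 and Ance differed by -0.14 and 0.05.

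The 4 genes lie within the span of CenG1A, whose own level was 25.7 RPKM on agar, 21 on glucose and 15.1 on standard medium. In all, 12 of the 35 genes overlap another annotated gene, and the share over all genes was not counted. The overlapping genes with a value, CenG1A, alien, imd, Mesh1, atms and CG14253, had agar minus glucose differences of -0.04 to 0.49, each smaller than that of its partner in the set. Whether reads were counted by strand is not given, so reads of overlapping genes may be shared. None of the 35 had 9 values identical to those of another gene, which 190 genes had.

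Gene order showed 3 more pairs: GstE6 with GstE9, CG9331 with CG31674, and CG31300 with CG31104. With the cluster of 4 they came to 10 of the 35 genes lying within 5 genes of another member. How often other genes lie this near was not counted, so nothing is read from this count. CG13658, an EcKinase-like gene beside CG31104, differed by 0.77 and had 34.4 ± 12.4 RPKM on agar and 19.6 ± 3.18 on glucose (SD, n = 3 each). Beside CG31300, CG11892 and CG10514 had low levels and differed by -0.23 and 0.20.

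**Figure D3:**
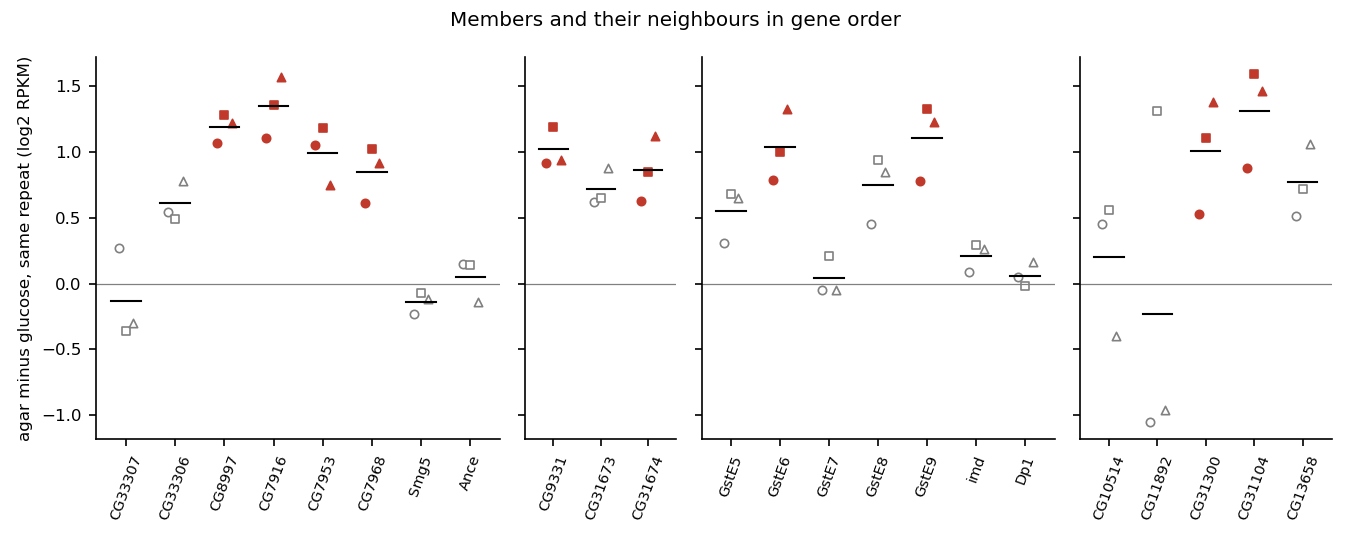
Agar minus glucose difference (log2) in each repeat for the genes around the 4 groups of neighbouring members, in gene order, with tested genes only; circles, squares and triangles are repeats 1, 2 and 3, filled symbols are members and bars are means. In the first group the 4 adjacent members lie at means of 0.85 to 1.35, the flanking CG33306 lies at 0.61, and CG33307 beyond it and Smg5 on the other side lie at -0.13 and -0.14.

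The remaining members have no role given here or are little known. Reg-2, named as a rhythmically expressed gene, had 27, 32.4 and 34.3 RPKM on agar, 15.3, 14.2 and 14.9 on glucose, against 13.7, 11.5 and 12.5 on standard medium. CG44098 had 9.94, 13 and 8.94 on agar, 4.84, 4.60 and 3.00 on glucose, against 3.66, 6.07 and 3.58 on standard medium, a difference of 1.37. CG17906 had 4.19, 5.55 and 11.3 on agar, 2.28, 2.36 and 3.54 on glucose, against 2.38, 2.02 and 1.79 on standard medium, a difference of 1.26. As the choice required, agar did not overlap another diet in these 3 genes. The gene ect had 4.80 ± 1.16 RPKM on agar, 2.14 ± 0.596 on glucose and 2.65 ± 0.436 on standard medium, CG32407 had 122 ± 56.2, 60.4 ± 7.23 and 59.2 ± 7.41, and CG31463 had 52.9 ± 18.1, 27.6 ± 2.74 and 27.9 ± 3.55 (SD, n = 3 each). CG42846, the rarest, rested on 24 to 85 reads per library, whereas Cat rested on 5551 to 11852.

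Lists that held no member are given by their counts. In the 20 such lists, without the marker lists, limma called 0 genes in either direction between agar and glucose, and their medians ran from -0.41 to 0.28. Among the 443 genes in them, 34 were higher and 38 lower at an unadjusted limma p under 0.05. Over all 8036 tested genes 826 had such a p in either direction. With the block 8 of the 20 lists had a called gene. Of 18 heat shock and Turandot genes 0 had a higher mean on agar than on glucose, with a median of -0.41 (0 higher and 2 lower at an unadjusted p under 0.05). The median was -0.19 without agar replicate 3, with 3 above 0, -0.28 without glucose replicate 2 and -0.78 without glucose replicate 1. Of 30 trypsins and Jonah proteases 9 were above 0, with a median of -0.24 (4 higher and 2 lower at an unadjusted p). Without agar replicate 3 the median was 0.00, with 15 above 0, and without agar replicate 1 it was -0.41. Of 21 starvation, FOXO and gluconeogenesis genes 8 were above 0, with a median of -0.14 (2 and 5), and with the block 2 were called higher and 1 lower. That median was -0.06 without agar replicate 1 (with 1 called higher and 1 lower), -0.03 without glucose replicate 3 and -0.22 without agar replicate 3. Of 15 sugar transporters 11 were above 0, with a median of 0.19 (6 and 3), and with the block 3 were called higher and 2 lower. It was 0.08 without agar replicate 3 and 0.31 without agar replicate 1, where 2 were called higher. CG4607, a member that resembles sugar transporters, was not in this list.

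The repeats were not equal. Agar replicate 3 was the highest agar library for 29 of the 35 genes (82.9%), against 42.5% of all tested genes, and agar replicate 1 was highest for 0 and lowest for 26 (74.3%, against 43.6%). Glucose replicate 3 was the highest glucose library for 23 (65.7%, against 39.8%), and standard replicate 3 the highest standard library for 24 (68.6%, against 24.5%). The genes lay at the median -0.27, -0.01 and 0.32 from their own diet mean in agar replicates 1, 2 and 3, and between -0.12 and 0.17 in the other 6 libraries, where the median tested gene was between -0.05 and 0.05. Within repeats 1, 2 and 3 the median agar minus glucose difference was 0.81, 1.11 and 1.23, and the median agar minus standard difference was 0.92, 1.22 and 1.37. Without agar replicate 3 the median for the same 35 genes was 0.84 in place of 1.01, and 21 of them reached 0.8. Without agar replicate 1 it was 1.15. The part of the composition of agar replicate 3 in these values was not tested.

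**Figure D4:**
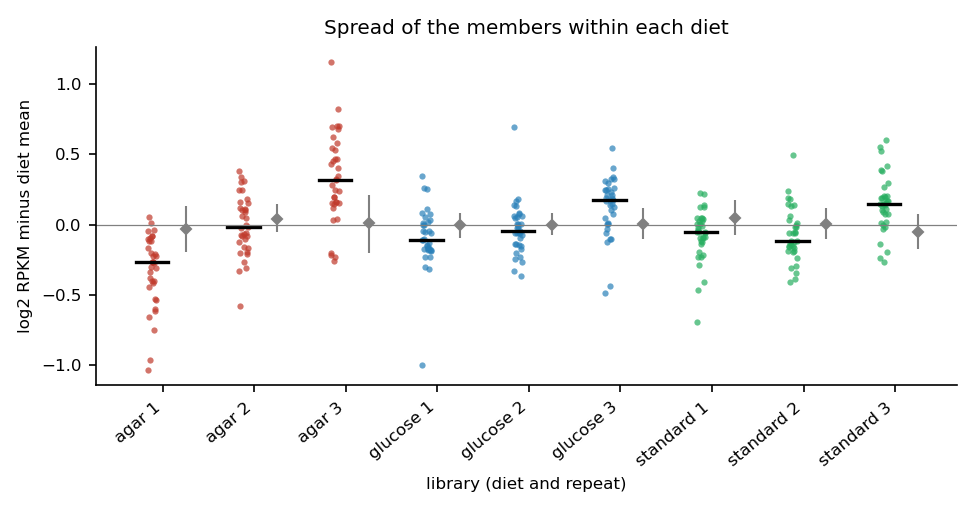
Deviation of each gene from its own diet mean (vertical axis, log2) in each of the 9 libraries, with points for the 35 genes, black bars for their median and grey diamonds with bars for the median and quartiles of all tested genes. The points lie lowest in agar replicate 1 (median -0.27) and highest in agar replicate 3 (median 0.32).

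The level in a repeat that had no part in the choice was read by choosing genes on 2 repeats and looking at the third. Choosing on repeats 2 and 3 gave 66 genes, 32 of them among the 35. In repeat 1 agar lay above glucose in all 66 and above both other diets in 64 (97.0%), against 41.7% of tested genes with the same level minimum. The median agar minus glucose difference was 0.63 in repeat 1, compared with 0.94 in the repeats used, and 21 genes (31.8%) reached 0.8, against 1.76% of tested genes. Choosing on repeats 1 and 3 gave 43 genes, 27 of them among the 35. In repeat 2 agar lay above both other diets in 40 of the 43 (93.0%, against 58.7%), with medians of 1.05 in the repeat left out and 1.06 in those used. Choosing on repeats 1 and 2 gave 49 genes, 26 of them among the 35. In repeat 3 agar lay above both in 42 of the 49 (85.7%, against 50.7%), with medians of 1.19 and 0.97. After median-ratio scaling the shares above both were 94.1%, 92.9% and 91.1%, against 24.7%, 35.1% and 37.0% of tested genes. These are counts over genes that are not independent of each other, and no test was made of them. They describe the sets chosen on 2 repeats and not the 35 genes as a set.

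**Figure D5:**
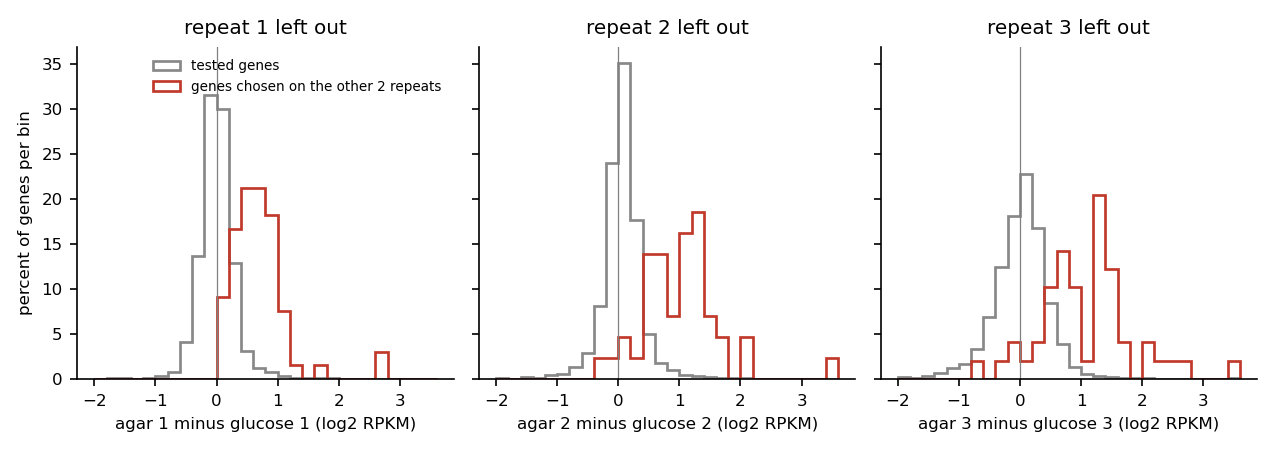
Agar minus glucose difference (horizontal axis, log2) in the repeat that was left out, for the genes chosen on the other 2 repeats and for all tested genes with the same level minimum, as shares of genes per bin (values beyond the ends are drawn in the end bins). The chosen genes have medians of 0.63, 1.05 and 1.19 in repeats 1, 2 and 3, while tested genes have medians of 0.00, 0.07 and 0.05.

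Membership near the limits was a matter of small differences. The nearest genes inside the 0.8 limit were Cat and CG4607, both at 0.808, and the nearest outside were CG13890 (Dci), at 0.796, and CG33966, at 0.793. By this limit alone 541 genes were kept out. CG18547 (0.430) and CG42846 (0.408) were nearest inside the 0.5 limit on glucose minus standard, and CG17928 (0.501) and CG15093 (0.502) nearest outside, with 40 genes kept out by it alone. For the level, CG42846 and ect lay inside at 2.65 and 4.80 RPKM, and Pgant8 lay outside at 1.61. Overlap with another diet alone kept out 9 genes.

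The balance between glucose and standard medium depended on scaling. As deposited, 24 of the 35 genes had a higher mean on glucose than on standard medium, against 86.2% of all tested genes. Scaled by median ratios, which brings the libraries to a common typical level, 8 did, against 51.7%. With quantile normalization 16 did, against 55.5%. The median glucose minus standard difference of the 35 was 0.14, -0.18 and -0.02 in the 3 cases. The median agar minus standard difference was 1.21, 0.85 and 1.02. The agar minus glucose median hardly moved, at 1.01, 0.97 and 0.98. Of the 35 genes, 21 met the choice with median-ratio scaling and 25 with quantile normalization. Those missing after median-ratio scaling failed the flatness limit in 7 cases, the 0.8 limit in 5 and the separation from standard medium in 11, with some failing more than 1. In all, 10 genes met the choice under both scalings and without each library in turn: CG8997, CG7916, CG7953, CG9331, CG17906, GstE6, Reg-2, CG44098, CG10559 and CG31075.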

How the data were processed

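Per the labels' protocols, Trizol was used for whole-gut RNA and the TruSeq Stranded mRNA kit for the libraries. Per the submitters' processing notes CASAVA 1.82, Bowtie2 2.1 and limma were used. Genome build, annotation and strand setting were not given in the sources used here, hence no coordinates or sequences are printed. The deposited values are log2 RPKM per gene, 1 value per gene and library. RPKM was computed back from these log2 values. Library totals were recovered from the form (reads + 0.5) / (total + 1) / length; whole reads (relative tolerance 1e-06) came out for 2622 of 4240 genes with 1 transcript (61.8%), so no count test was run. With 3 libraries per diet, precision is set mainly by their spread.

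The deposited log2 values were compared by limma 3.58.1 in R 4.3.3 (group mean per diet, empirical Bayes with a variance trend, 2-sided) over 8036 genes (1 RPKM or more in 3 or more libraries). Calls used a Benjamini-Hochberg adjusted p under 0.05 over all of them. Nothing in the labels says more of the repeats than that they are biological. Same-numbered libraries deviated together (correlations of residuals 0.285 to 0.578, others -0.52 to 0.169), so a fit with the repeat as a block was run. The earlier account of these data used log2(RPKM + 1), which is an alternative here. Other alternatives were no filter, a filter of 5 RPKM, median-ratio scaling, quantile normalization, no variance trend, the 6 compared libraries alone, each library left out, and other limits for the choice of genes; the median-ratio version of the repeat left out and the leave-out of the libraries for the same genes and for the gene lists were chosen after seeing the data. The scripts were tested on simulated data. Tables and plots used pandas 2.3.3, NumPy 2.4.6 and Matplotlib 3.10.9 under Python 3.11.15.

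The members and the 33 gene lists were chosen with earlier results of these data known. Genes named are the members (those with the largest differences, the highest levels, in a list, near a limit, neighbours or with a known role), at most 2 other genes per list with the smallest p, and genes of families looked up after the members were known. Names were matched to RefSeq (Release 6 plus ISO1 MT), which gave 7878 current, 2198 older and 169 unmatched names, and gene order was taken from it. Several members lie in multigene families. The values of 1 member are not reported here, although the counts and medians over the 35 include it.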

Additional observations from a re-analysis of the deposited data

How the results depend on the processing

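The count of genes higher on agar than on glucose by limma, 19, became 39 with a filter of 5 RPKM, 10 after median-ratio scaling, 9 after quantile normalization, 133 with the repeat block, 2 with the 6 compared libraries alone, and 1 to 81 with single libraries left out. It was 81 without agar replicate 1, 7 without standard replicate 1 and 1 or 2 without any of the other 7. Genes higher on agar than on standard medium (3070) numbered 1908, 151 and 232 under the filter and the 2 scalings, 1859 with 6 libraries, and 1627 (without agar replicate 2) to 3046 with single libraries left out. Genes that differed between glucose and standard medium (1926) numbered 1125, 77 and 56, 3760 with the repeat block, and 23 (without glucose replicate 2) to 2725 (without agar replicate 3) with single libraries left out; without glucose replicates 1 and 3 and standard replicates 2 and 3 they numbered 45, 283, 762 and 211. Of the 35 genes, 6 passed against glucose in the main comparison, 20 without agar replicate 1, 2 without standard replicate 1 and 0 without any other single library. The 35 were chosen on this contrast, so nothing is read from these counts. The choice gave 77 genes at a limit of 0.6, with a median of 0.78, 18 at 1.0, 22 with a flatness limit of 0.3, and 26 (without agar replicate 3) to 71 (without agar replicate 1) with single libraries left out, and 63 without glucose replicate 3. The members' median glucose minus standard difference changed sign, from 0.14 to -0.18 after median-ratio scaling and -0.02 with quantile normalization. Median-ratio scaling subtracted 0.091 to 0.096 from the glucose libraries and -0.279 to -0.19 from the standard libraries (log2). Every gene's glucose minus standard difference thus moved by the same amount. Why the libraries differed in these offsets was not tested, nor was the cause of the other shifts. CG42846 rested on 24 to 85 reads per library, and the part of depth in its values was not tested.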
